A study of Mus musculus with 9 samples.

Results

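Expression of the forkhead transcription factor genes Foxo1 and Foxo3 and of 7 genes of the naive and memory T cell program, Klf2, S1pr1, Il7r, Tcf7, Lef1, Ccr7 and Bach2, was followed in murine Tc17 cells treated with dimethyl fumarate (DMF). The genes were taken by symbol from a table of 41388 genes, in which each of the 9 had 1 row, and all 9 were among the 11599 genes tested, whose normalized counts averaged 10 or more. Tc17 cells are IL-17-producing CD8+ T cells, here primed from sorted naive CD8+ T cells of lymph node and spleen of C57BL/6 mice. For 2 days, all cultures received plate-bound anti-CD3 (5 µg/ml), anti-CD28 (0.5 µg/ml), human IL-2 (50 U/ml), human TGF-β (0.5 ng/ml), murine IL-6 (30 ng/ml) and anti-IFN-γ (5 µg/ml). The solvent DMSO was present at 0.2% in all cultures, alone in Ctrl, with 20 µM DMF in the DMF group, and with 20 µM DMF and 50 µM glutathione (GSH) in the DMF + GSH group. GSH is the cellular thiol that reacts with DMF. Each group had 3 libraries, numbered as replicates 1, 2 and 3, with replicate 1 prepared in batch 1 and replicates 2 and 3 in batch 2. The design asks how DMF alters expression in these cells and whether added GSH reverses it.

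FOXO proteins are transcription factors that enter the nucleus when PI3K-AKT signaling is low and are phosphorylated by AKT, bound by 14-3-3 proteins and kept in the cytoplasm when it is high. In resting naive T cells, nuclear FOXO1 maintains genes for survival and for traffic through lymphoid tissue, such as Il7r and, by way of KLF2, S1pr1 and Ccr7. TCF1 (encoded by Tcf7), LEF1 and BACH2 are transcription factors of naive and memory T cells that are lost during effector differentiation. RNA levels do not report the phosphorylation or the location of FOXO proteins.

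Expression is given as the deposited normalized count, a read count divided by a factor for its library. Depth ranged from 7671772 to 14511926 reads per library, and the values of the 9 genes rested on 172 to 16723 reads per library. Differences are log2 fold changes (log2FC) on log2(normalized count + 1) from a limma model of the 9 libraries that includes the preparation batch (batch term), with p-values adjusted over all 11599 genes (p adj), and a gene was taken as changed at a p adj under 0.05. The labels do not say whether replicates were separate mice or cultures. The p-values therefore measure the spread between these libraries that is left after the batch, or after the replicate number where this replaces it. Libraries of equal replicate number moved together, so a model in which these numbers replace the batch (replicate block) is quoted beside those of the 9 genes whose call it alters and beside the counts of gene lists. Markers of CD8+ T cells (6 of 6 tested, such as Cd8a and Cd3e) summed to 24825 to 32201 normalized counts in the 9 libraries. They did not move together. Cd8a was higher with DMF than in Ctrl in all 3 replicate numbers (10599, 10356 and 9483 normalized counts in Ctrl, 13778, 13103 and 10923 with DMF), whereas Cd3d, Cd3e, Cd3g and Trac were lower in all 3 (Cd3g 3593, 4186 and 2763 in Ctrl, 2303, 2811 and 2121 with DMF). Their part in the results for the 9 genes was not tested. Cd4 had at most 4.40 normalized counts, and Hba-a1 and Hbb-bs were at 0. Ctrl replicate 3, the shallowest library, stood apart with 119 normalized counts of Lyz2 and 58.3 of Csf1r, which are myeloid genes, against at most 10.6 and 5.83 in the other libraries. The myeloid list (5 of 6 markers found, 2 with a mean of at least 10) summed to 71.7 to 269 normalized counts in Ctrl, 54.0 to 71.1 with DMF and 81.7 to 89.1 with DMF + GSH, and results without Ctrl replicate 3 are given with the other fits that leave out a library. Of 4 NK cell markers, Eomes had 14.9 to 49.9 normalized counts in Ctrl and 123 to 139 with DMF. Klrb1c had at most 2.84 in Ctrl and was at 0 with DMF in all 3 libraries, Ncr1 had at most 2.08 in Ctrl and was at 0 with DMF, and Tyrobp was at 0, 0 and 9.95 in Ctrl and at 0, 0 and 1.94 with DMF. In RNA of whole cultures, fewer cells that express a gene and less RNA per cell cannot be told apart.

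With DMF, 6 of the 9 genes were lower than in Ctrl (Foxo1, S1pr1, Il7r, Tcf7, Lef1 and Bach2) and 0 were higher, whereas 13.3% of all genes tested were lower and 14.6% higher, 28.0% in either direction. The median log2FC of the 9 genes was −0.76, and that of all genes was 0.01. S1pr1 changed most, by 3.92-fold, and Foxo1 itself by 1.21-fold. Klf2 and Ccr7 were also lower in each replicate number, but with a wide spread between replicates, and they passed in the replicate block but not in the limma model with the batch term. Without the replicate block, each also passed in some of the alternative fits. In the replicate block 8 of the 9 genes were lower against 21.4% of all genes (45.0% in either direction). Foxo3 did not pass in either fit. With DMF + GSH, 6 of the 9 genes were higher than with DMF (Klf2, S1pr1, Il7r, Tcf7, Lef1 and Bach2) against 9.99% of all genes (22.3% in either direction), with a median log2FC of 0.72 against −0.00165 for all genes, and none of the 9 passed against Ctrl. Both comparisons share the DMF libraries. The 9 genes were chosen with earlier results of these data known, so the shares of all genes beside them are no independent test.

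**Figure D1:**
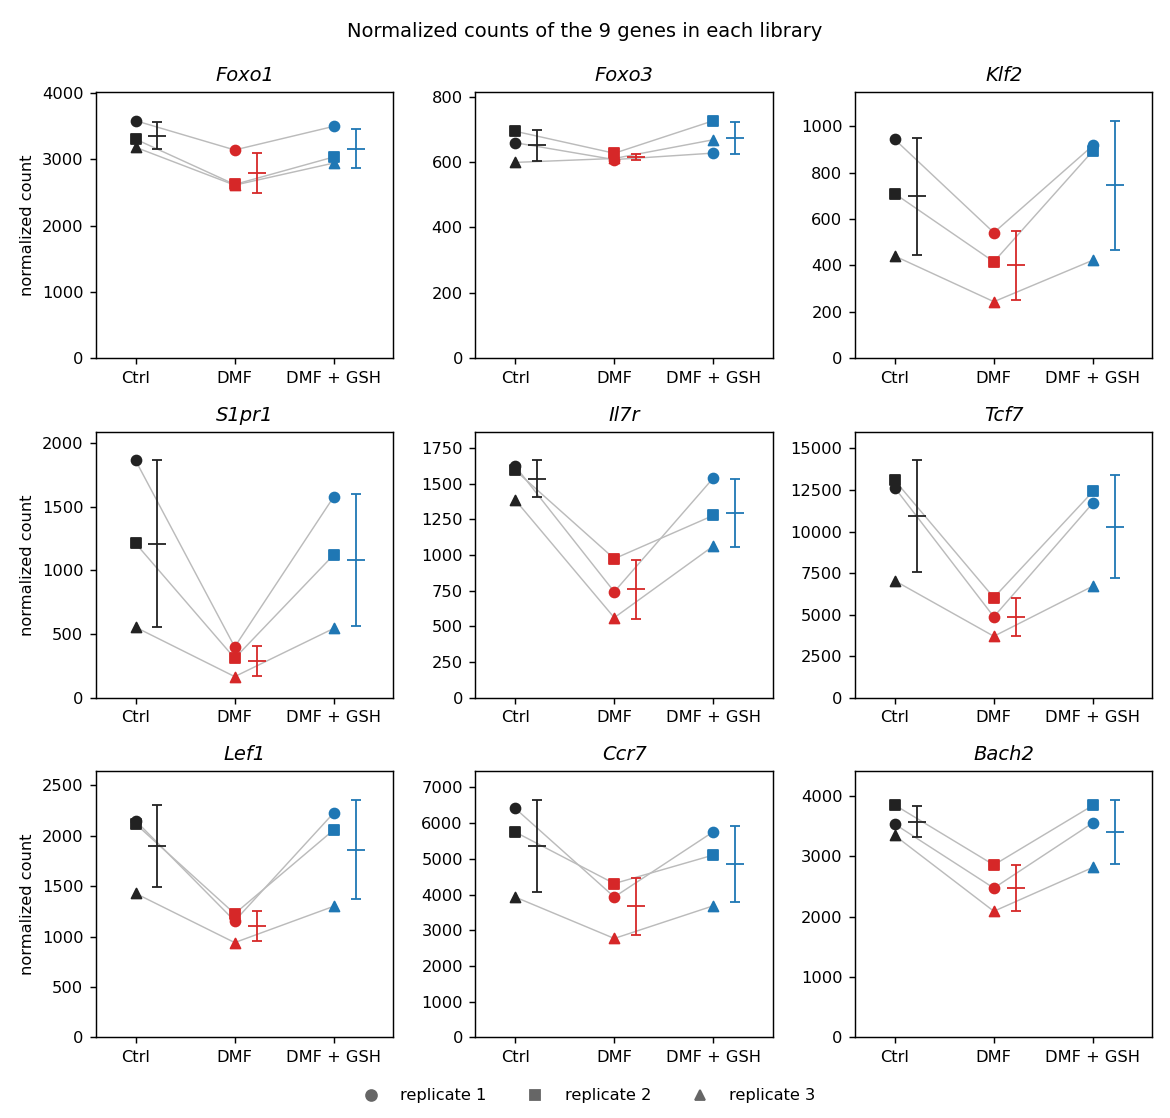
Normalized counts (y axis, from 0) of the 9 genes in Ctrl, DMF and DMF + GSH (x axis). Points are libraries, with the shape marking the replicate number and gray lines joining equal numbers, and bars give the mean ± SD of 3 libraries. Every gene except Foxo3 was lower with DMF than in Ctrl in all 3 replicate numbers, and replicate 3 was the lowest library of its group for 8 of the 9 genes in all 3 groups.

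Promoters of the genes were searched for the letters that FOXO proteins bind, because several of these genes are described as FOXO1 targets. RefSeq windows on GRCm38.p6, from 250 bases before to 50 bases after a start site, were at hand for 7 of the 9 genes (11 windows; not for S1pr1 and Ccr7). On either strand, GTAAACA was present in 1 of the 11 windows, that of Tcf7, and in 3.65% of all 32841 windows, and GTCAACA in 1, that of Klf2, and in 2.50% of all. The sequences are shown 5′ to 3′ on the strand of the gene with these letters, or their reverse complement, in capitals. The Tcf7 run is chr11:52282577-52282606 on the minus strand, in which the letters are the second to the eighth base of a transcript. The Klf2 run is chr8:72318812-72319061 on the plus strand, the 250 bases before the RefSeq start, in which the letters begin 244 bases upstream of that start. GENCODE places the start of Klf2 further upstream, at base 72319033, within the run.
Tcf7: acctttataggaGTAAACAgacccccgcca
Klf2: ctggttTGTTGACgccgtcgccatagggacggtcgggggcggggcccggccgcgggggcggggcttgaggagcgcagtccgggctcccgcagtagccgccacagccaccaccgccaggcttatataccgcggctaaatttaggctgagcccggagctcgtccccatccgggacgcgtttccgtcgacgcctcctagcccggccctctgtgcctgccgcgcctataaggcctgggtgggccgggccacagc
The windows of Foxo1, Foxo3, Il7r, Lef1 and Bach2 held neither run of letters. CTTTGA, a core of the TCF1 and LEF1 motif, occurred in windows of Lef1 and Bach2 and in 16.0% of all windows. A match is a run of letters and not a measured binding site. Only these windows and exact letters were searched, so a window without them does not show that a gene lacks binding sites.

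Foxo1 (ENSMUSG00000044167; chr3:52268336-52353221, plus strand, GRCm38) encodes the main FOXO protein of T cells. It had 3584, 3306 and 3184 (mean ± SD 3358 ± 205) normalized counts in Ctrl replicates 1, 2 and 3, n = 3 as for all genes here, 3143, 2623 and 2612 (mean ± SD 2793 ± 304) with DMF, and 3499.8, 3038 and 2946 (mean ± SD 3161 ± 297) with DMF + GSH. All Ctrl libraries lay above all DMF libraries, although Ctrl replicate 3 and DMF replicate 1 were close, and the DMF + GSH libraries overlapped with both groups. Foxo1 fell by 0.27 on the log2 scale with DMF (SE 0.0587, p adj = 0.0115), with −0.19, −0.33 and −0.29 in replicate numbers 1, 2 and 3. With DMF + GSH against DMF, the log2FC was 0.18 (p adj = 0.0521 in the limma model with the batch term, 0.00858 in the replicate block). Other fits with the batch term lay on both sides of the threshold, with a p adj of 0.0514 by edgeR and 0.0485 by DESeq2 on the recovered reads. Limma gave 0.0478 with TMM rescaling, 0.0465 with a minimum mean of 50 and 0.159 with no minimum on the counts. On the strand opposite to Foxo1 lies Gm20402, which shares 7.78% of the exonic bases of Foxo1 and had a mean of 0.

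Foxo3 (ENSMUSG00000048756; chr10:42181841-42276755, minus strand) encodes a related FOXO protein. Its values were 659, 694 and 599 (mean ± SD 650.5 ± 48.2) normalized counts in Ctrl, 607, 627 and 611 (mean ± SD 615 ± 10.3) with DMF, and 627, 726 and 668 (mean ± SD 674 ± 49.7) with DMF + GSH. The DMF libraries lay within the range of Ctrl, and the lowest DMF + GSH library exceeded the highest DMF library by less than 1 normalized count. The log2FC with DMF was −0.08 (95% confidence interval −0.26 to 0.11, p adj = 0.503; 0.389 in the replicate block), and with DMF + GSH against DMF it was 0.13 (p adj = 0.283). A change of Foxo3 as large as the estimate for S1pr1 or Tcf7 lay outside this interval, whereas the estimate for Foxo1 lay just below its lower bound. The difference between Foxo1 and Foxo3 was not tested.

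Klf2 (ENSMUSG00000055148; chr8:72319033-72321656, plus strand) encodes a zinc finger transcription factor of quiescent T cells that activates S1pr1. It had 944, 709.7 and 441 (mean ± SD 698 ± 252) normalized counts in Ctrl, 542, 416 and 244 (mean ± SD 401 ± 149) with DMF, and 918, 895 and 423 (mean ± SD 745 ± 279) with DMF + GSH. Replicate 3 was by far the lowest library in each group, and Ctrl replicate 3 lay below DMF replicate 1, so that the groups overlapped. The difference between DMF and Ctrl was nearly the same in each replicate number, with log2 differences of −0.80, −0.77 and −0.85. The fitted log2FC of −0.81 had an SE of 0.283 with the batch term (p adj = 0.0577) and of 0.0824 in the replicate block (p adj = 3.34e-07). With the batch term, the p adj was 0.0589 by edgeR and 0.105 by DESeq2 on the recovered reads, 0.0451 by limma with no minimum on the counts, and 0.0394 by limma on the 6 libraries compared. With DMF + GSH, Klf2 rose over DMF by 0.88 (p adj = 0.0492), in all 3 replicate numbers. This call was near the threshold, with a p adj of 0.0422 by edgeR and 0.0676 by DESeq2 on the recovered reads. With limma, the p adj was 0.0358 with no minimum on the counts, 0.066 on the 6 libraries compared and 0.110 without the batch term.

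S1pr1 (ENSMUSG00000045092; chr3:115710433-115715072, minus strand) encodes the sphingosine 1-phosphate receptor through which T cells leave lymphoid tissue. Its counts were 1864, 1213 and 555 (mean ± SD 1211 ± 655) in Ctrl, 399.9, 311 and 166 (mean ± SD 292 ± 118) with DMF, and 1579.9, 1124 and 545 (mean ± SD 1083 ± 518) with DMF + GSH. The lowest Ctrl and DMF + GSH libraries lay above the highest DMF library, and in each group the order was replicate 1, 2, 3 from high to low. S1pr1 fell by 1.97 on the log2 scale with DMF (SE 0.337, p adj = 0.00649) and rose by 1.85 with DMF + GSH over DMF (p adj = 0.0116). Within the replicate numbers the differences between DMF and Ctrl were −2.22, −1.96 and −1.73.

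Il7r (ENSMUSG00000003882; chr15:9505788-9530176, minus strand) encodes the IL-7 receptor α-chain, which conveys survival signals to naive and memory T cells. It was measured at 1623, 1594 and 1386 (mean ± SD 1535 ± 129) normalized counts in Ctrl, 743, 974 and 561 (mean ± SD 759 ± 207) with DMF, and 1540.3, 1278 and 1064 (mean ± SD 1294 ± 239) with DMF + GSH. The DMF libraries were apart from both other groups. Il7r changed by −1.05 with DMF (SE 0.179, p adj = 0.00649), and replicate 2 showed the smallest difference (−1.13, −0.71 and −1.30). It rose by 0.79 with DMF + GSH over DMF (p adj = 0.0167). Of the 9 genes, Il7r was the one whose DMF + GSH mean differed from the Ctrl mean by more than 1 SD of Ctrl (1294 ± 239 against 1535 ± 129), although this comparison did not pass the test (p adj = 1; 0.780 in the replicate block).

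Ccr7 (ENSMUSG00000037944; chr11:99144196-99155077, minus strand) encodes the chemokine receptor that guides T cells into lymph nodes. Its values were 6417, 5753 and 3930.4 (mean ± SD 5367 ± 1287) normalized counts in Ctrl, 3932, 4308 and 2771 (mean ± SD 3671 ± 802) with DMF, and 5762, 5108 and 3686 (mean ± SD 4852 ± 1061) with DMF + GSH. Ctrl replicate 3 and DMF replicate 1 were nearly equal, and DMF replicate 2 lay above both, so that the groups overlapped. The log2FC was −0.54 with DMF (p adj = 0.0567; replicate block 6.68e-07; 0.061 by edgeR and 0.0143 by DESeq2 on the recovered reads; 0.0486 with no minimum on the counts) and 0.40 with DMF + GSH over DMF (p adj = 0.148; replicate block 2.42e-05). Both differences had the same sign in each replicate number, with −0.71, −0.42 and −0.50 for DMF minus Ctrl.

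Tcf7 (ENSMUSG00000000782; chr11:52252371-52283014, minus strand) encodes TCF1, a transcription factor that sustains naive and memory CD8+ T cells. It had 12643, 13085 and 7046 (mean ± SD 10925 ± 3366) normalized counts in Ctrl, 4875, 6027 and 3702 (mean ± SD 4868 ± 1163) with DMF, and 11726, 12416 and 6726 (mean ± SD 10289 ± 3105) with DMF + GSH. The DMF libraries lay below all other libraries, and replicate 3 was the lowest in each group. Tcf7 changed by −1.14 with DMF (SE 0.276, p adj = 0.0163) and by 1.06 with DMF + GSH over DMF (p adj = 0.0259). The replicate numbers gave −1.37, −1.12 and −0.93 for DMF minus Ctrl.

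Lef1 (ENSMUSG00000027985; chr3:131110471-131224356, plus strand) encodes LEF1, which binds the same DNA motif as TCF1. Its normalized counts were 2149, 2117 and 1428 (mean ± SD 1898 ± 408) in Ctrl, 1154, 1226 and 939.8 (mean ± SD 1107 ± 149) with DMF, and 2227, 2058 and 1300.0 (mean ± SD 1862 ± 494) with DMF + GSH. As for Tcf7, the DMF libraries were the lowest and did not overlap with the other groups. Lef1 fell by 0.76 on the log2 scale with DMF (p adj = 0.0178; −0.90, −0.79 and −0.60 in the replicate numbers) and rose by 0.72 with DMF + GSH over DMF (p adj = 0.0269). Gm43352, on the opposite strand, shares 13.7% of the exonic bases of Lef1, and the sources used here do not give whether counting used the strand.

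Bach2 (ENSMUSG00000040270; chr4:32238804-32586108, plus strand) encodes a transcriptional repressor that restrains effector genes. It had 3533, 3849 and 3345 (mean ± SD 3575 ± 255) normalized counts in Ctrl, 2472, 2856 and 2089 (mean ± SD 2472 ± 384) with DMF, and 3555, 3843 and 2816 (mean ± SD 3404 ± 529.7) with DMF + GSH. Ctrl and DMF did not overlap, whereas DMF + GSH replicate 3 lay just below DMF replicate 2. Bach2 changed by −0.54 with DMF (SE 0.135, p adj = 0.0179), which was −0.51, −0.43 and −0.68 in the replicate numbers. It rose by 0.46 with DMF + GSH over DMF (p adj = 0.0374), a call that was lost by limma on the 6 libraries compared (p adj = 0.0616). Its antisense gene Bach2os, with a mean of 29.3 normalized counts, shares 5.40% of the exonic bases of Bach2.

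**Figure D2:**
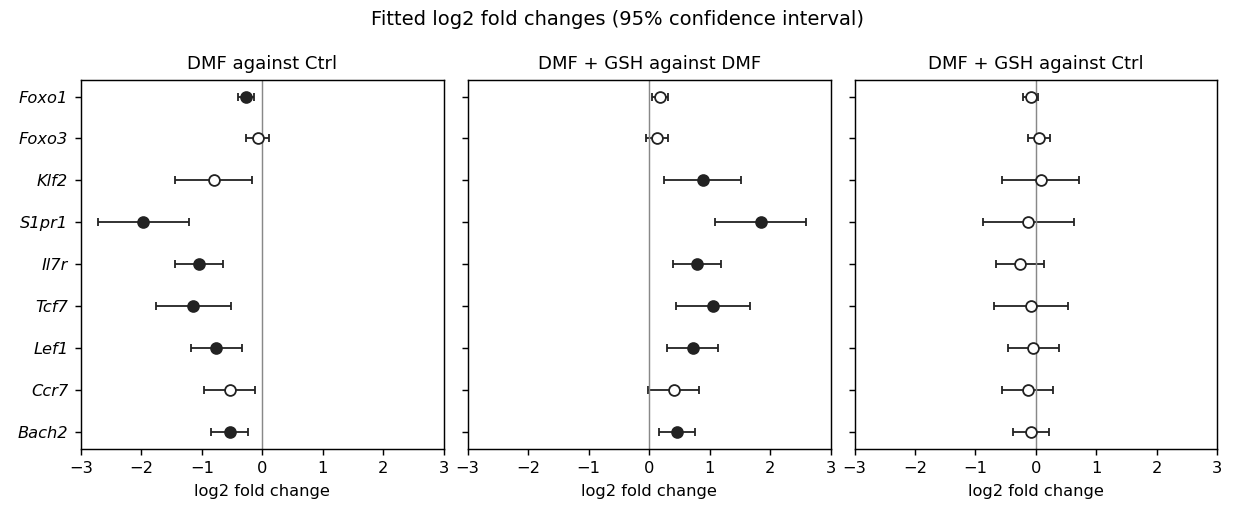
Fitted log2FC (x axis) of each gene (y axis) in the 3 comparisons, with 95% confidence intervals from the fit with the batch term. Filled points have a p adj under 0.05, which holds for 6 genes for DMF against Ctrl, for 6 genes for DMF + GSH against DMF and for 0 genes for DMF + GSH against Ctrl.

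Between DMF + GSH and Ctrl, none of the 9 genes passed, nor did any other gene tested by limma (0.00%, with 222 genes at an unadjusted p under 0.05). The number was 0 also by edgeR (213 at an unadjusted p under 0.05) and by DESeq2 (100). In the replicate block, 4 genes (0.0345%) passed by limma, 14 by edgeR, and 0 to 16 by limma with each library left out, none of them among the 9. The estimates for the 9 genes ran from −0.26 for Il7r to 0.08 for Klf2, with a median of −0.08 against −0.000503 for all genes. Their precision differed. The 95% confidence interval was −0.22 to 0.04 for Foxo1 and −0.88 to 0.63 for S1pr1, with SEs of 0.0587 and 0.337, and in the replicate block the SEs were 0.0513 and 0.0801. Of the 9 genes, 5 (Foxo1, S1pr1, Il7r, Tcf7 and Ccr7) were lower with DMF + GSH than in Ctrl in all 3 replicate numbers, as were 14.2% of all genes. The sign of the log2FC turned in 7 of the 9, all but Foxo1 and Il7r, when single libraries were left out.

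The replicate numbers separated the libraries for most of these genes. Replicate 3 held the lowest value in 25 of the 27 combinations of gene and group, the exceptions being Foxo3 with DMF and with DMF + GSH. Within Ctrl, the highest library exceeded the lowest by 3.36-fold for S1pr1, 2.14-fold for Klf2 and 1.86-fold for Tcf7, and by 1.13-fold for Foxo1, 1.16-fold for Foxo3 and 1.15-fold for Bach2. All genes but Foxo3, 8 of 9, were lower with DMF than Ctrl in all 3 replicate numbers, against 32.0% of all genes, and all 9 were higher with DMF + GSH than DMF in all 3, against 31.9%. In 6 of the 9 genes all DMF libraries lay below all Ctrl libraries (19.8% of all genes), and in 5 all DMF + GSH libraries lay above all DMF libraries (17.8%).

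Which genes passed depended on single libraries when the batch term was used. For DMF against Ctrl, 3 of the 9 genes were lower when Ctrl replicate 1 was left out (2.57% of all genes), 2 when Ctrl replicate 2 was (4.77%), 0 when DMF replicate 1 was (0.586%) and 2 when DMF replicate 3 was (4.21%). When Ctrl replicate 3, which held the Lyz2 and Csf1r counts, was left out, 8 were lower (15.5% of all genes). All 9 log2FC kept a negative sign in each of these fits, and in the replicate block 8 genes were lower whichever library was left out, against 16.8% to 22.1% of all genes. For DMF + GSH against DMF, 3 of the 9 were higher when Ctrl replicate 1 was left out (6.78% of all genes). None was higher when DMF replicate 1 (0.069%), DMF replicate 3 (0.491%), DMF + GSH replicate 1 (0.0431%) or DMF + GSH replicate 2 (0.586%) was left out, against 7 or 8 in the replicate block, where 14.7% to 20.1% of all genes were higher with a library left out. With all libraries, the replicate block gave 8, against 19.9% of all genes higher and 41.5% in either direction. Under a stricter rule, a p adj below 0.01 and a log2FC of 0.75 or more in size, S1pr1 and Il7r remained for DMF against Ctrl (2 of 9, against 2.89% of all genes) and 0 of 9 for DMF + GSH against DMF (0.543%).

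**Figure D3:**
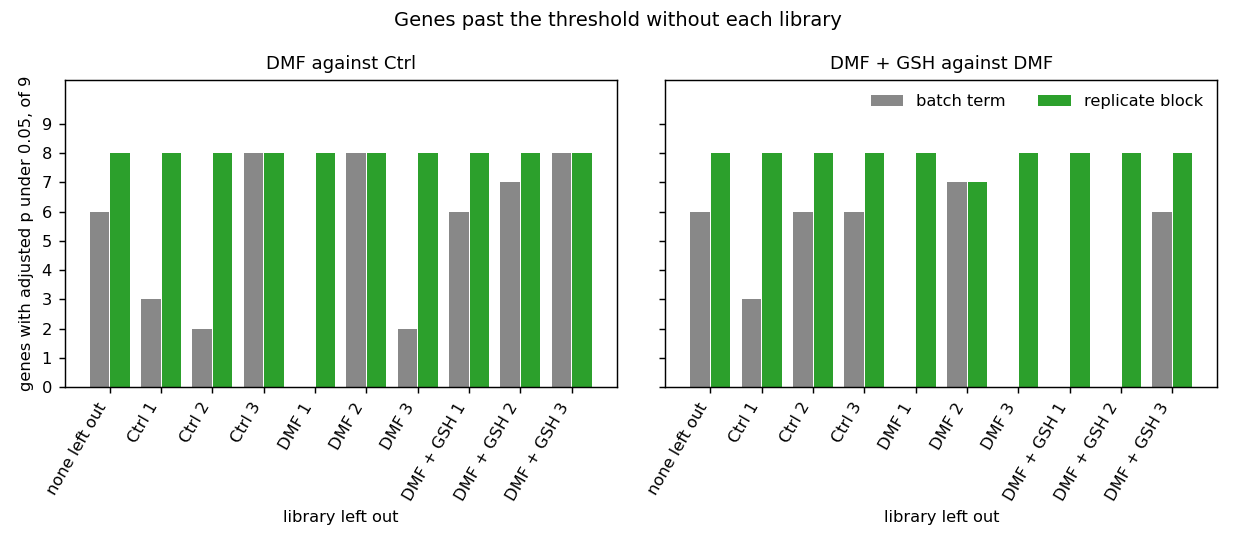
Number of the 9 genes with a p adj under 0.05 (y axis) when no library or 1 library is left out (x axis), with the batch term (gray) and with the replicate block (green). With the batch term the number fell to 0 without DMF replicate 1 in both comparisons, where 0.948% and 0.129% of all genes passed, and in the replicate block it stayed at 7 or 8, with 35.4% and 30.9% of all genes without that library.

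To compare levels between genes, normalized counts were divided by the summed length of the annotated exons in kb. In Ctrl, Tcf7 was highest with 4162 ± 1282 normalized counts per kb, followed by Ccr7 with 2713 ± 651. S1pr1 (397 ± 215), Foxo1 (388 ± 23.7), Klf2 (378 ± 136), Bach2 (359.7 ± 25.6) and Il7r (329 ± 27.7) came next and overlapped in range with their neighbours in this order. Lef1 had 216 ± 46.4 and Foxo3 85.9 ± 6.36 per kb, so that Foxo3 lay below Foxo1 in every library. With DMF, Tcf7 (1855 ± 443) and Ccr7 (1856 ± 405) were at the same level, and S1pr1 (96.0 ± 38.7) was nearer to Foxo3 (81.2 ± 1.36) than to Foxo1 (322 ± 35.0). Isoforms that lack exons make these values too low for some genes.

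**Figure D4:**
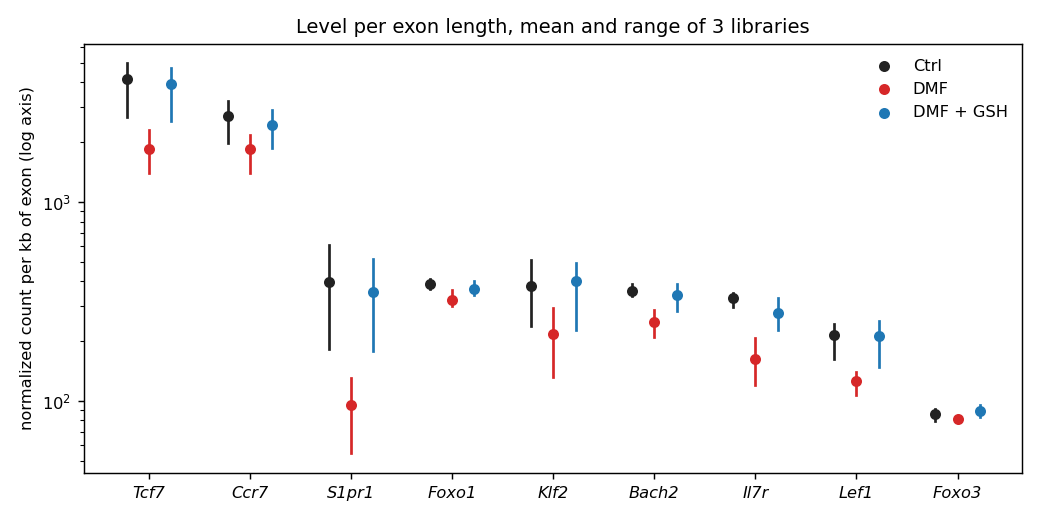
Normalized count per kb of exon (y axis, log scale) of the 9 genes in Ctrl, DMF and DMF + GSH, ordered by the Ctrl mean. Points are means and vertical lines the range of 3 libraries. Tcf7 and Ccr7 lay above the other genes in each group, and S1pr1 moved from the third place in Ctrl to near Foxo3 with DMF.

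A further 5 lists held related genes, with none of the 9 among them, and were also chosen with earlier results of these data known. Their counts stand beside all genes tested, of which 13.3% were lower and 14.6% higher with DMF (21.4% and 23.7% in the replicate block), and 9.99% were higher and 12.4% lower with DMF + GSH than with DMF (19.9% and 21.6%). Of 26 tested genes of the naive and memory program, 16 were lower with DMF and 0 higher (21 and 1 in the replicate block), against 13.3% and 14.6% of all genes. Their median log2FC was −0.58, and that of all genes was 0.01. Gpr183, a receptor for oxysterols, changed by −1.33, Satb1, a chromatin organizer, by −1.33, Igfbp4 by −1.16 and Rasgrp2, an activator of the small GTPase RAP1, by −1.10, with p adj from 0.00107 to 0.0146. Of the 26, 12 were higher with DMF + GSH than with DMF (18 in the replicate block), among them Satb1 (1.15), and 1, Ly6c2, was lower (−0.99; 2 in the replicate block).

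Of 21 tested genes described as FOXO targets in many cell types, 13 were lower and 4 higher with DMF (15 and 4 in the replicate block; median −0.52), against 13.3% lower and 14.6% higher of all genes. The lower ones included Bcl6, a repressor of effector and glycolytic genes (log2FC −1.60, p adj = 0.0174), the cyclin Ccng2 (−1.24, p adj = 0.0065), the stress-induced Sesn3 (−1.03, p adj = 0.00543) and the pseudokinase Trib2 (from 1881 ± 436 to 939.9 ± 225 normalized counts, p adj = 0.0101). Gadd45b, a stress response gene, changed in the other direction (1.10, p adj = 0.0107), as did Tnfsf10, the death ligand TRAIL (0.71), Sod2, mitochondrial superoxide dismutase (0.66) and Klf6 (0.56). With DMF + GSH against DMF, 10 were higher and 2 lower (14 and 4 in the replicate block).

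Of 18 tested genes that encode FOXO proteins or their regulators, 4 were lower and 1 higher with DMF (4 and 3 in the replicate block), and the median was 0.08. The number called in either direction was near the 28.0% of all genes, so that the list as a whole did not stand out by its count. Pik3ip1, an inhibitor of PI3K, changed from 582 ± 215 to 205 ± 72.4 normalized counts (log2FC −1.49, p adj = 0.0115), and was higher again with DMF + GSH (555 ± 190.3; 1.43 over DMF, p adj = 0.0167). The phosphatase gene Phlpp1 (−0.49), whose product opposes AKT, and Foxo4 (−0.56), a further FOXO gene, were also lower. Ywhag, one of the 14-3-3 genes, was higher (0.53, p adj = 0.00457). Between DMF + GSH and DMF, 3 of the 18 were higher and 2 lower (4 and 3 in the replicate block). Of all genes, 9.99% were higher and 12.4% lower in that comparison. Foxo4 did not pass there (log2FC 0.43, p adj = 0.0541 with the batch term, 0.00532 in the replicate block).

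Partners of the 9 genes, such as related receptors, signaling subunits and cofactors, were lower in 10 and higher in 3 of 26 tested (14 and 5 in the replicate block; median −0.20), against 13.3% lower and 14.6% higher of all genes. Cxcr4, a chemokine receptor, fell by 1.78 on the log2 scale from a low level (p adj = 0.00309), followed by S1pr4, another sphingosine 1-phosphate receptor (−0.74), Klf13 (−0.71), Tle3, a corepressor of TCF1 and LEF1 (−0.56), and Axin2, a target of these factors (−0.54). Cd69, whose protein removes S1PR1 from the cell surface, was higher with DMF (0.38, p adj = 0.0105), as were Mafg (0.36) and Stat5a (0.28). With DMF + GSH against DMF, 8 partners were higher and 2 lower (13 and 5 in the replicate block).

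Of 17 tested effector genes, 10 were higher and 4 lower with DMF (11 and 4 in the replicate block; median 0.50), against 14.6% higher and 13.3% lower of all genes. With DMF + GSH, 3 were higher and 10 lower than with DMF (4 and 11 in the replicate block), against 9.99% and 12.4%. Ifng rose from 106 ± 41.5 normalized counts in Ctrl to 741 ± 165 with DMF (log2FC 2.87, p adj = 0.00124) and Gzmb, encoding the cytotoxic protease granzyme B, from 1766 ± 731 to 7126 ± 232 (2.09, p adj = 0.00188). Havcr2 (3.91), Prdm1 (2.41) and Eomes (2.35) rose from low levels of 2.59, 4.59 and 28.2 normalized counts in Ctrl. Havcr2 averaged 44.2 in the DMF libraries but 7.29 when GSH was added, and Prdm1 averaged 29.1 but 7.37. Both therefore met the minimum mean of 10 only through their DMF libraries. For genes this low in Ctrl the filter favored a rise, and both count among the 10 higher and the 10 lower. Cxcr6 (−1.11), Id2 (−0.94), Bhlhe40 (−0.44) and Runx3 (−0.28) were lower. For DMF + GSH against Ctrl, none of the genes in the 5 lists passed with the batch term. In the replicate block 1 of them, the FOXO target Trib2, was lower with DMF + GSH (1424 ± 298 normalized counts) than in Ctrl (1881 ± 436; log2FC −0.40, p adj = 0.00791, and 1 with the batch term).

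**Figure D5:**
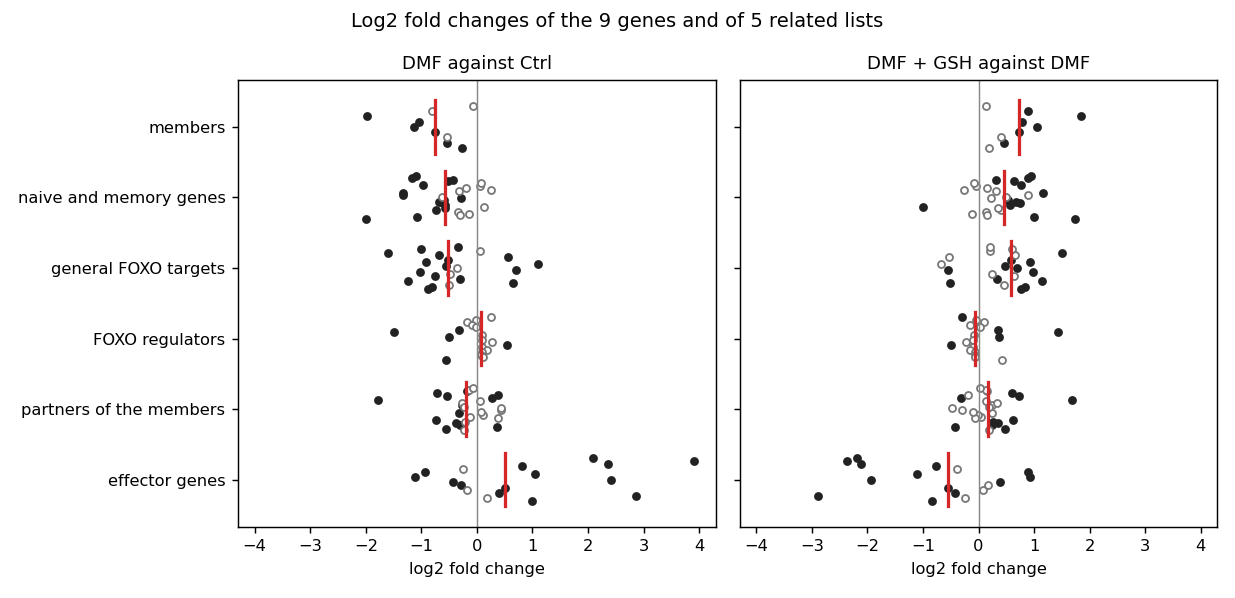
Log2FC (x axis) for DMF against Ctrl and DMF + GSH against DMF of the 9 genes (top row, "members") and of the tested genes of 5 lists. Filled points have a p adj under 0.05, open points do not, red lines are medians, and vertical positions within a row only separate the points. The medians of the 9 genes were −0.76 and 0.72, those of the effector genes 0.50 and −0.55, and both panels use the same DMF libraries.

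For each of the 6 genes that passed for DMF against Ctrl, the most similar profiles were sought among all genes tested. Similarity was the root mean square (RMS) difference between log2 values in the 9 libraries, each gene centred on its own mean. Among the genes nearest to S1pr1 were Prr33 (RMS 0.313) and Rap1gap2 (0.321), while S1pr1 itself deviated from its mean by an RMS of 1.10. Nearest to Foxo1 were Phip (0.0335), BC053749 (0.0355) and Cytip (0.0418), and nearest to Il7r were Bambi-ps1 (0.104), Jakmip1 (0.112) and Depdc1b. Tcf7 was followed by Tsc22d3 (0.0888), Arhgef18 (0.0904) and Abtb1 (0.0930), Lef1 by Pdcd4 (0.0518), Ttc38 (0.0653) and Fyb (0.0676), and Bach2 by Pld2 (0.0577), Gimap4 (0.0655) and Ifnar1 (0.0687). Genes that vary less can come closer by this measure, so that its values are not comparable between the 6 genes.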

How the data were processed

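RNA-seq of 9 libraries of murine Tc17 cells (3 per group) was used. The authors aligned single reads of poly(A) libraries to Ensembl GRCm38 with STAR (version 2.4.0b, per the submitters' processing notes), counted them per gene with featureCounts and fitted DESeq2 with a term for the preparation batch. The values the authors deposited are read counts divided by a factor per library, a normalized signal and not raw counts. Each value above 0 (100%) was a whole multiple of its library's smallest step (tolerance 0.01 reads), which gave the reads and the depth (7671772 to 14511926 reads per library). The deposited table also holds the authors' fold change and p-values, which were not used. The sources used here do not give whether counting used the strand.

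Differences were tested with limma-trend (limma 3.58.1, R 4.3.3) on log2(normalized count + 1), which understates changes of low counts, over the 11599 of 41388 genes with a mean of at least 10, with group and preparation batch in the model and Benjamini-Hochberg adjustment over all of them. Same-numbered replicates paired the samples: residuals from the group means correlated with 0.447 to 0.578 in the 9 pairs of libraries with the same number and with −0.471 to −0.0621 in the 18 pairs with different numbers. Alternatives were pseudocounts of 0.5 and 4, no minimum or a minimum mean of 50, TMM rescaling, the replicate block, no batch term, a fit of the 6 libraries of a comparison, edgeR 4.0.16 and DESeq2 1.42.0 on the recovered reads, a stricter threshold, and each library left out. The scripts were tested on simulated counts in which 200 of 11599 genes were changed. Limma called 19 unchanged genes there, with the batch term and with the replicate block alike. These counts held no batch or replicate effect, so they could not compare the batch term with the replicate block. The 9 genes and the lists were chosen with earlier results of these data known. Of each list, up to 5 changed genes with the largest absolute log2FC for DMF against Ctrl, and changed genes of the opposite direction, were named; Ly6c2 was named after its value was seen. Up to 3 most alike genes are named for each of the 9 that passed for DMF against Ctrl. Grk2 and Tle5 were found under the older symbols Adrbk1 and Aes. Positions and exon lengths come from GENCODE vM21 (GRCm38), and promoters from RefSeq (GRCm38.p6). Figures were drawn with Matplotlib 3.10.9 (Python 3.11.15). Results for some single genes of the lists are not reported here, and the counts of the lists include them. Samples of patients are not analysed here.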

Additional observations from a re-analysis of the deposited data

How the results depend on the processing

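Across 783 alternative values of the log2FC of the 9 genes in the 3 comparisons, 661 kept their direction and side of the threshold, 49 lost the threshold, 58 gained it and 15 changed sign. The 15 changes of sign were all for DMF + GSH against Ctrl with a library left out, in 7 genes, and 0 of them passed the threshold. With each library left out in turn, that log2FC ran from −0.022 to 0.10 for Foxo3, −0.24 to 0.35 for Klf2, −0.46 to 0.16 for S1pr1, −0.35 to 0.17 for Tcf7, −0.20 to 0.17 for Lef1, −0.31 to 0.000608 for Ccr7 and −0.19 to 0.0557 for Bach2. With the replicate block in addition, it changed sign for Foxo3 without Ctrl replicate 3 (−0.00299), for Klf2 without DMF + GSH replicate 2 (−0.0406) and for Lef1 without DMF + GSH replicate 3 (0.045). For DMF against Ctrl, the number of the 9 genes past the threshold was 6; it was 5 to 8 in the other fits of all libraries (10.6% to 45.0% of all genes), 2 under the stricter rule (p adj below 0.01, log2FC of 0.75 or more in size; 2.89%), and 0 to 8 with each library left out (0.948% to 32.7%). For DMF + GSH against DMF, it was 6, and 4 to 8 (7.93% to 42.0% of all genes), 0 (0.543%) and 0 to 7 (0.0862% to 26.7%), respectively. For DMF + GSH against Ctrl, it was 0 in every fit run (0.00% to 0.138%). With the replicate block in place of the batch, 8, 8 and 0 genes passed, and 8, 7 to 8 and 0 with a library left out in addition (35.4% to 47.1%, 30.9% to 42.0% and 0.00% to 0.138% of all genes). In the fits of all 9 libraries, the pairing changed no call of the 9 genes beside Klf2, Ccr7 and Foxo1. With a library left out it changed further calls. Without DMF replicate 1, S1pr1 for DMF against Ctrl had a p adj of 0.0572 by limma with the batch term and 5.15e-11 in the replicate block. Foxo1 for DMF against Ctrl did not pass without the batch term (p adj = 0.0610). The cause of the low numbers without some of the libraries was not tested, and a group left with 2 libraries is taken to vary like the others. The lowest value of the 9 genes, S1pr1 in DMF replicate 3, rested on 172 reads, and the share of counting error in the spread between replicates was not tested.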
